A study of Mus musculus with 8 samples.

Results

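The proteasome is the protease complex that breaks down ubiquitin-tagged proteins, and its genes were described here in brown adipose tissue of mice with and without Nampt in their adipocytes. The genes were chosen by name: protein-coding symbols beginning with Psma, Psmb, Psmc, Psmd, Psme, Psmf or Psmg and a number, leaving out the interferon-inducible subunits Psmb8, Psmb9 and Psmb10. Of 41388 genes in the deposited tables, 47 met this rule, and 45 of them had enough reads to be tested. One of the 47, Psmc3ip, matches by symbol alone and encodes no known proteasome subunit.

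RNA depleted of ribosomal RNA was sequenced from brown fat of 4 ANKO mice and 4 WT mice, all of strain C57BL/6J, held at room temperature and fed regular chow. ANKO mice carried floxed alleles of Nampt, the enzyme that makes nicotinamide mononucleotide for NAD+ salvage, together with an adiponectin-Cre transgene, which recombines floxed alleles in adipocytes of all fat depots. WT mice were labelled flox/flox, so both groups share the floxed alleles. The libraries come from whole tissue, in which cells other than adipocytes keep their Nampt, and age and sex are not given in the labels.

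A cylinder of alpha and beta rings, the 20S core, holds the proteolytic sites, and a 19S regulator at its end recognises ubiquitin chains, unfolds the substrate and feeds it in. Other activators open the core without ubiquitin, and dedicated chaperones assemble core and regulator. In brown fat the proteasome is known for degrading proteins under cold and metabolic stress, with the transcription factor NFE2L1 driving expression of its subunit genes.

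The libraries differed in more than the proteasome. Total counts ran from 5738067 to 26426476 in ANKO and from 21771276 to 49697156 in WT, with the fourth ANKO library (ANKO4) the shallowest. Nampt measured 67.4 to 77.6 CPM in the ANKO libraries and 484 to 571 CPM in the WT libraries, where CPM is the read count relative to a library size scaled by the TMM method. The tissue label was checked on markers: 6 adipocyte markers summed to 5242 to 7858 CPM in ANKO and 10579 to 12298 CPM in WT, and 6 brown adipocyte markers to 820.0 to 3037 CPM in ANKO and 5913 to 13060 CPM in WT. The summed level of 8 macrophage markers was 894 to 1321 CPM in ANKO and 119 to 147 CPM in WT, and all 8 were higher. For 10 skeletal muscle markers the sum was 8580 to 12899 CPM in ANKO and 61.5 to 2471 CPM in WT, with 8 of 10 called higher. T and NK cell markers (8 of 8), B cell markers (4 of 5), fibroblast markers (5 of 5) and Schwann cell markers (2 of 4) were also called higher, and endothelial markers lower (3 of 5). No marker of these lists was at 0 in all 8 libraries, and their part in the proteasome values was not tested. For muscle a covariate was fitted, but muscle level and genotype are confounded. In such bulk samples fewer cells of a type and less RNA per cell cannot be told apart.

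Most proteasome genes differed little between ANKO and WT brown fat. Of the 45 tested, 10 were called with edgeR's quasi-likelihood test at an adjusted p under 0.05, which is 22.2% of them, where 58.2% of the 16705 genes tested were called. The calls were 1 higher and 9 lower, beside 30.6% of all genes called higher and 27.6% called lower. The median log2 fold change of ANKO over WT was -0.18 over the 45 genes and -0.01 over all genes tested. The sign was below 0 for 37 of the 45, where 50.6% of all genes tested had that sign.

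The sizes of the changes were small. The median absolute log2 fold change was 0.19 for the proteasome genes and 0.54 for all genes tested. A log2 change beyond 1 in either direction was found for 1 of 45 (2.22%), Psme2b, where 29.4% of all genes passed it. The 95% interval of the fold change lay within 1.5-fold of no change in both directions for 29 of 45 (64.4%) and for 23.6% of all genes, and within 2-fold for 43 of 45 (95.6%) and for 49.99% of all genes. For 11 of 45 (24.4%) the 4 ANKO libraries did not overlap the 4 WT libraries, where 55.0% of all genes tested were so separated. The remaining 35 genes were not called. Their log2 fold changes ran from -0.48 to 0.18, 28 of them below 0, and each of their intervals lay within 2-fold of no change.

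**Figure D1:**
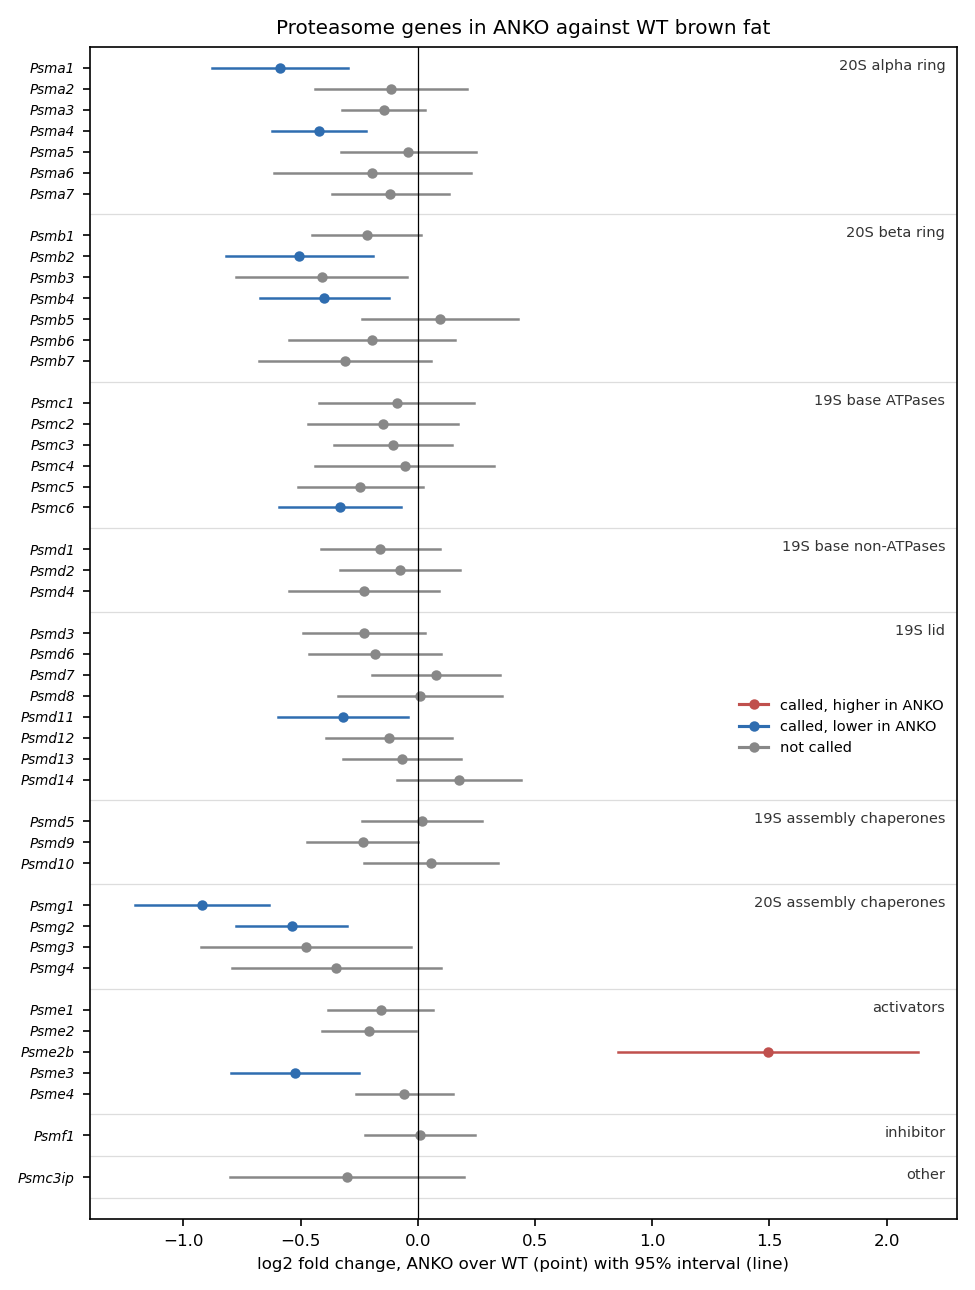
Log2 fold change of ANKO over WT (x axis) for each of the 45 tested proteasome genes (y axis, grouped by class), with points for the edgeR estimate and lines for its 95% interval, which is not adjusted for the number of genes. Blue marks the 9 called lower, red the 1 called higher and grey the 35 not called, and most grey points sit just left of 0.

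The 20S core had 4 of 14 tested genes called (28.6%), all lower. Of all genes tested, 27.6% were called lower and 58.2% in either direction, and these shares stand beside each class count below. The median log2 fold change of the core was -0.21. Its summed level was 844 ± 139 CPM in ANKO and 1038 ± 110 CPM in WT (SD, n = 4 each), or 81.3% of WT. The 4 ANKO sums were 932, 955, 838 and 650.1 CPM, against 909, 986, 1144 and 1114 CPM in WT. The ANKO and WT sums overlapped, and ANKO4 was the lowest. Without ANKO4 the ANKO mean was 908 CPM. The sums of the activators did not overlap, at 352 to 405 CPM in ANKO and 428 to 450 CPM in WT. Nor did those of the assembly factors with the inhibitor, at 110 to 134 CPM in ANKO and 137 to 145 CPM in WT.

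In the alpha ring, which gates entry to the core, 2 of 7 tested genes were called, both lower. Psma1, a structural alpha subunit (chromosome 7, 114264606 to 114276118, minus strand, GRCm38), had 82.5, 93.0, 82.4 and 66.9 CPM in ANKO, against 107, 109.5, 145 and 127 CPM in WT. Every ANKO library was below every WT library. Its log2 fold change was -0.59 ± 0.13 (SE, edgeR adjusted p = 0.00323), a level of 66.5% of WT. Psma4, another alpha subunit (chromosome 9, 54950790 to 54958030, plus strand), had 45.8, 44.0, 44.3 and 39.8 CPM in ANKO, against 52.0, 57.5, 63.3 and 60.7 CPM in WT. These groups did not overlap either, and the log2 fold change was -0.42 ± 0.09 (SE, edgeR adjusted p = 0.00251). At the other end, Psma5 had 7.88, 8.07, 7.19 and 6.27 CPM in ANKO, against 7.43, 7.61, 7.45 and 7.90 CPM in WT, a log2 fold change of -0.04 with the libraries intermixed. Psma2, Psma3, Psma6 and Psma7 had log2 fold changes of -0.11, -0.14, -0.19 and -0.12 and were not called.

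The beta ring carries the cutting sites, and none of its 3 constitutive catalytic subunits was called. Psmb5, the chymotrypsin-like subunit, had 29.0, 27.9, 22.7 and 18.5 CPM in ANKO, against 20.1, 21.4, 25.1 and 25.6 CPM in WT. ANKO1 and ANKO2 lay above every WT library, ANKO3 inside the WT range and ANKO4 below it. The log2 fold change of 0.10 had a 95% interval of -0.24 to 0.43 (edgeR adjusted p = 0.603). Psmb6, the caspase-like subunit, had 96.7, 93.6, 95.7 and 60.8 CPM in ANKO, against 81.6, 95.3, 109 and 112 CPM in WT. Its log2 fold change was -0.20, with an interval of -0.55 to 0.16 (edgeR adjusted p = 0.313), and ANKO4 lay far below the other ANKO libraries. Psmb7, the trypsin-like subunit, had 122, 125, 95.7 and 70.8 CPM in ANKO, against 118, 122, 133 and 140.4 CPM in WT. For it the log2 fold change was -0.31, with an interval of -0.68 to 0.06 (edgeR adjusted p = 0.131), and again ANKO4 was the lowest.

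The 2 beta genes that were called, Psmb2 and Psmb4, encode subunits without a cutting site. Psmb2 (chromosome 4, 126677630 to 126709714, plus strand) had 68.4, 67.3, 56.3 and 46.3 CPM in ANKO, against 71.5, 80.6, 97.2 and 89.7 CPM in WT. The groups were separate by a narrow margin, and Psmb2 fell by 0.51 ± 0.14 on the log2 scale (SE, edgeR adjusted p = 0.0108). Psmb4 had 103, 107, 97.0 and 75.6 CPM in ANKO, against 110.3, 123, 136 and 136 CPM in WT, and fell by 0.40 ± 0.12 on the log2 scale (SE, edgeR adjusted p = 0.0179). Its groups were likewise separate, with ANKO4 well below the rest. Psmb3, with a log2 fold change of -0.41, missed the threshold (edgeR adjusted p = 0.0532), and Psmb1 had -0.22 (edgeR adjusted p = 0.0953).

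Of the 17 genes of the 19S regulator, 2 were called (11.8%), both lower, and the median log2 fold change was -0.12. The summed level was 1458 ± 200 CPM in ANKO and 1590 ± 171 CPM in WT (SD, n = 4 each), or 91.7% of WT. The ANKO sums were 1598, 1567, 1501 and 1164 CPM, against 1427, 1462, 1774 and 1696 CPM in WT. ANKO1, ANKO2 and ANKO3 lay inside the WT range and ANKO4 below it. With ANKO4 left out the ANKO mean was 1555 CPM. Among the 6 ATPases of the base, which unfold substrates, Psmc6 (chromosome 14, 45329824 to 45349071, plus strand) was called. It had 93.2, 91.0, 83.5 and 65.4 CPM in ANKO, against 102, 98.8, 113 and 106 CPM in WT, without overlap. Its log2 fold change was -0.33 ± 0.12 (SE, edgeR adjusted p = 0.0312), and the call was lost when ANKO3, WT3 or WT4 was left out (adjusted p = 0.0632, 0.0691 and 0.0570 in edgeR). The ATPase nearest to no change, Psmc4, had 94.8, 95.3, 80.0 and 56.7 CPM in ANKO, against 72.1, 74.5, 99.4 and 94.3 CPM in WT. The libraries of Psmc4 were intermixed and its log2 fold change was -0.06.

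None of the 3 non-ATPase subunits of the base was called. Psmd2, a scaffold that docks ubiquitin receptors, had 165, 164, 166 and 135 CPM in ANKO, against 152, 149, 187 and 177 CPM in WT, and a log2 fold change of -0.08. Psmd4, a ubiquitin receptor, had 158, 146, 146 and 107 CPM in ANKO, against 143, 145, 186 and 179 CPM in WT, and a log2 fold change of -0.23. In both genes 3 ANKO libraries lay inside the WT range and ANKO4 below it.

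In the lid, which removes ubiquitin chains, 1 of 8 genes was called. Psmd11, a structural lid subunit (chromosome 11, 80428615 to 80473248, plus strand), had 49.5, 44.8, 52.0 and 38.3 CPM in ANKO, against 54.1, 49.2, 66.2 and 61.4 CPM in WT. WT2 lay inside the ANKO range, the log2 fold change was -0.32 ± 0.12 (SE, edgeR adjusted p = 0.0482), and leaving out any one of ANKO1, ANKO2, ANKO4, WT3 and WT4 ended the call, with edgeR adjusted p between 0.0596 and 0.117. Psmd14, the deubiquitinase of the lid, had 69.8, 61.5, 58.5 and 47.1 CPM in ANKO, against 50.9, 50.3, 58.0 and 51.0 CPM in WT. Its 3 deeper ANKO libraries lay above every WT library and ANKO4 below them, and the log2 fold change of 0.18 was not called (edgeR adjusted p = 0.225). Without ANKO4 it was 0.27 and was called (edgeR adjusted p = 0.0417). Psmd3, Psmd6, Psmd7, Psmd8, Psmd12 and Psmd13, the other lid genes, had log2 fold changes of -0.23, -0.18, 0.08, 0.01, -0.12 and -0.07.

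The chaperones of core assembly held the lowest fold change among the tested genes. Psmg1, which pairs with Psmg2 to build the alpha ring (chromosome 16, 95979933 to 95990960, minus strand), had 14.2, 13.8, 13.1 and 10.2 CPM in ANKO, against 20.9, 24.6, 25.4 and 26.6 CPM in WT. Every ANKO library was well below the lowest WT library. The log2 fold change was -0.92 ± 0.13 (SE, edgeR adjusted p = 0.000188), a level of 52.9% of WT. Psmg2 (chromosome 18, 67641599 to 67654162, plus strand) had 9.22, 8.99, 8.98 and 8.30 CPM in ANKO, against 12.8, 12.8, 13.6 and 12.4 CPM in WT, with little spread inside either group. It fell by 0.54 ± 0.11 on the log2 scale (SE, edgeR adjusted p = 0.00160).

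The other pair of core chaperones, Psmg3 and Psmg4, was not called. Psmg3 had 4.97, 5.42, 3.59 and 6.99 CPM in ANKO, against 5.79, 7.69, 7.87 and 7.42 CPM in WT, with a log2 fold change of -0.48 ± 0.20 (SE, edgeR adjusted p = 0.0650). Here ANKO4 was the highest ANKO library, and without it the log2 fold change was -0.63 and was called (edgeR adjusted p = 0.0217). Psmg4 had 6.31, 8.18, 4.63 and 4.66 CPM in ANKO, against 6.29, 7.50, 7.96 and 8.58 CPM in WT, and a log2 fold change of -0.35 (edgeR adjusted p = 0.159). The 4 core chaperones had a median log2 fold change of -0.51. For Psmd5, Psmd9 and Psmd10, chaperones of the 19S base, the log2 fold changes were 0.02, -0.24 and 0.06, none of them called. Psmd9 had 16.1, 14.8, 15.4 and 13.0 CPM in ANKO, against 19.1, 17.5, 17.0 and 16.6 CPM in WT, without overlap (edgeR adjusted p = 0.0795). Psmd10 had 14.6, 17.4, 13.5 and 11.8 CPM in ANKO, against 13.3, 13.2, 14.5 and 14.1 CPM in WT, with ANKO libraries on both sides of the WT range (edgeR adjusted p = 0.722).

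Among the activators, Psme3, the nuclear PA28 gamma subunit (chromosome 11, 101316213 to 101323537, plus strand), was called lower. It had 74.6, 78.5, 76.7 and 61.5 CPM in ANKO, against 87.9, 96.0, 120.4 and 115 CPM in WT, with no overlap. The log2 fold change was -0.52 ± 0.12 (SE, edgeR adjusted p = 0.00447). Psme1 and Psme2, which encode the interferon-inducible PA28 alpha and beta subunits, were not called. Psme1 had 64.9, 58.9, 60.2 and 50.7 CPM in ANKO, against 61.0, 72.7, 61.5 and 67.2 CPM in WT, a log2 fold change of -0.16 (edgeR adjusted p = 0.194). Psme2 had 28.9, 26.3, 25.2 and 23.7 CPM in ANKO, against 29.5, 28.9, 31.5 and 30.9 CPM in WT, a log2 fold change of -0.21 (edgeR adjusted p = 0.0677). Neither was higher in ANKO, while 10 of 10 interferon-stimulated markers were called higher, with sums of 710.0 to 833 CPM in ANKO and 78.5 to 121 CPM in WT. Psme4, the PA200 activator, had 234, 231, 233 and 214 CPM in ANKO, against 248, 240.0, 236 and 223 CPM in WT, and Psmf1, which encodes the inhibitor PI31, had 25.0, 28.4, 22.6 and 23.5 CPM in ANKO, against 25.6, 27.3, 22.7 and 23.1 CPM in WT. Their log2 fold changes were -0.06 and 0.01, with overlapping groups.

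Psme2b was the only proteasome gene called higher, at a low level. It had 3.06, 2.996, 1.61 and 2.77 CPM in ANKO, against 1.34, 0.971, 0.732 and 0.751 CPM in WT. The counts behind these were 80, 26, 17 and 19 in ANKO and 27, 25, 24 and 33 in WT. The groups did not overlap, and the log2 fold change was 1.495 ± 0.29 (SE, edgeR adjusted p = 0.00138). Of the 50-base words of its transcripts, 69.3% also occur in other genes, most often in Psme2, and its span (chromosome 11, 48945354 to 48946190) overlaps one end of that of 9930111J21Rik1 on the same strand and that of Gm12185. The gene 9930111J21Rik1 had 5.75 ± 0.671 CPM in ANKO and 2.01 ± 0.147 CPM in WT (SD, n = 4 each), a log2 fold change of 1.51. Whether the Psme2b reads arose from Psme2b, Psme2, 9930111J21Rik1 or Gm12185 cannot be told apart in the gene counts.

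**Figure D2:**
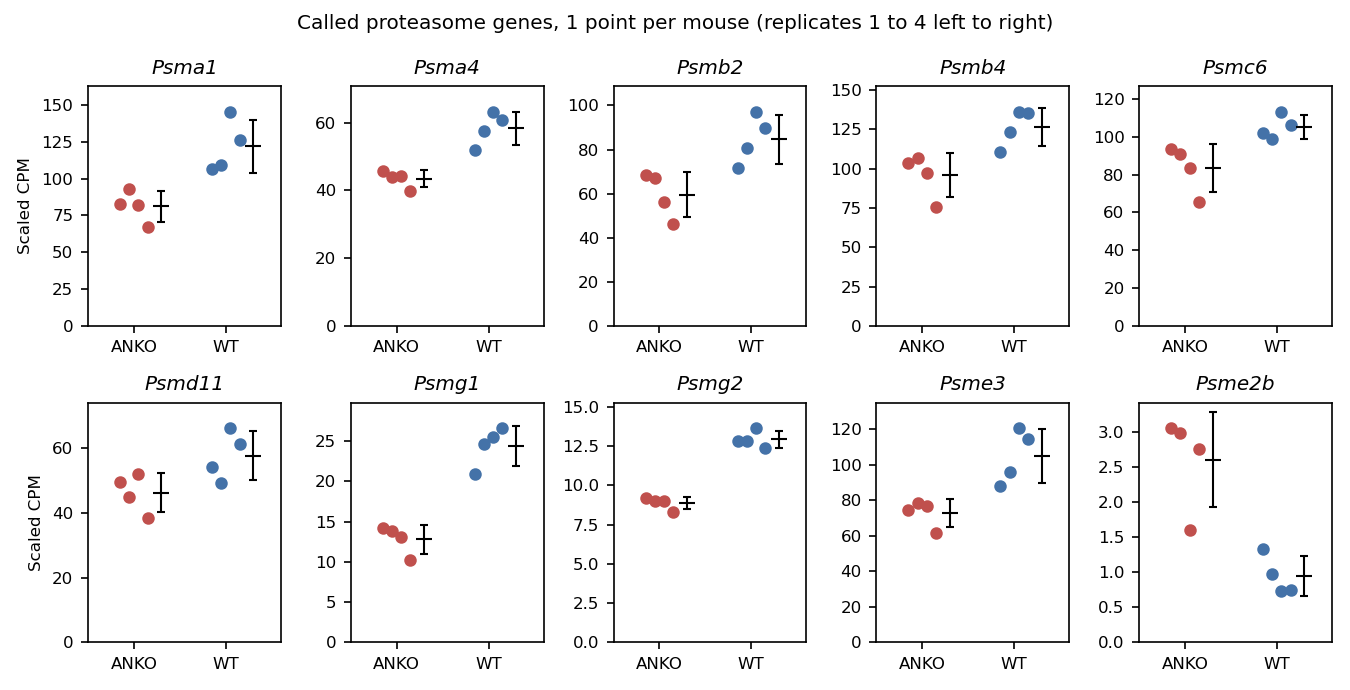
Scaled CPM (y axis) of the 10 called proteasome genes in the 4 ANKO and 4 WT libraries (x axis), with 1 point per mouse and the mean ± SD beside the points. ANKO points lie below WT points without overlap in 8 genes and with overlap in Psmd11, and Psme2b has ANKO above WT.

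Shared sequence also bears on some uncalled genes. The share of 50-base words found in other genes was 54.1% for Psmb5, 49.96% for Psma5, 28.3% for Psme2 and 24.9% for Psmd9. It was at most 17.8% for the other uncalled genes. The gene sharing most words was a processed pseudogene for Psmb5 and for Psma5. For Psmd9 it was the lincRNA Gm26745, which overlaps Psmd9 on the opposite strand. Of the called genes with lower levels, Psma1, Psmb2, Psmb4, Psme3, Psmg1 and Psmg2 had 0% shared words, while Psma4 had 14.3%, Psmd11 9.43% and Psmc6 0.0272%. Psmb7 overlaps Nek6 and Psmd13 overlaps Sirt3 on the opposite strand. In the deposited spans only the gene ends meet: Nek6 runs to 38588041, and Psmb7 starts at 38588036. Sirt3 runs to 140882309, and Psmd13 starts at 140881968. By transcript sequence, 9.26% of the 50-base words of Psmb7 also occur in Nek6. For Psmd13 the share found in other genes was 8.23%, most often in Sirt3. Nek6 had a log2 fold change of 2.06 and Sirt3 of -1.45, and with no strand setting given their reads and those of the proteasome genes cannot be told apart where they overlap.

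One library weighed on many of these values. ANKO4 was the lowest of the 8 libraries in 37 of 45 genes. The median over the 45 genes, as log2 of the level over the WT mean, was -0.06, -0.09, -0.14 and -0.46 in ANKO, against -0.13, -0.07, 0.12 and 0.09 in WT. Thus 3 ANKO medians lay in or next to the range of WT1 and WT2, WT3 and WT4 lay above them, and ANKO4 below. WT1 or WT2 was the lowest WT library in 39 genes, and WT3 or WT4 the highest in 39. The median coefficient of variation was 13.9% in ANKO (5.58% without ANKO4) and 11.2% in WT.

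Muscle marker RNA also differed between the libraries. The summed muscle markers were 8580, 9666, 12899 and 12817 CPM in ANKO, against 883, 2471, 142 and 61.5 CPM in WT. WT3 and WT4, with the lowest sums, had the highest medians of the proteasome genes. ANKO3 and ANKO4, with the highest sums, had the lowest medians of the 8 libraries, -0.14 and -0.46, though their sums were alike. WT2 had a larger sum than WT1 and a higher median. Whether muscle RNA had a part in the medians was not tested. When the level of the muscle markers was added as a covariate, 0 proteasome genes were called higher and 1 lower, Psmg1, while 24.7% of all genes were called. All ANKO sums lie above all WT sums, so this fit cannot separate muscle level from genotype. Without WT3 and WT4 the counts were 1 higher and 5 lower, and without ANKO4 they were 2 higher and 9 lower, with a median log2 fold change of -0.10.

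**Figure D3:**
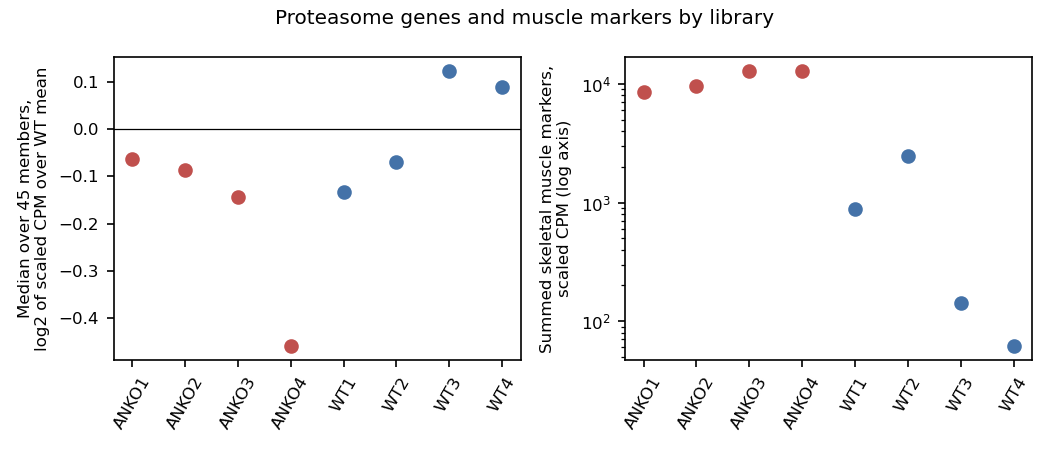
Median over the 45 proteasome genes of log2 scaled CPM relative to the WT mean (left) and summed scaled CPM of 10 skeletal muscle markers on a log axis (right), 1 point for each of the 8 libraries. ANKO4 sits lowest on the left at -0.46, and all 4 ANKO libraries sit above all WT libraries on the right.

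Levels per length showed the order of expression within the complex. On the scale of RPKM, scaled CPM per kilobase of the gene length in the files, Psmd8 was the highest at 121 ± 23.6 in ANKO and 120.2 ± 15.6 in WT (SD, n = 4 each). The next in WT were Psmb7, Psmb4, Psmb1 and Psma6, at 85.1, 69.1, 73.5 and 72.5 RPKM in ANKO and 106, 91.2, 85.6 and 83.1 RPKM in WT. The lowest tested core genes were Psma5 and Psma3, at 5.56 and 6.10 RPKM in ANKO and 5.75 and 6.74 RPKM in WT. Subunits present in equal number in the core thus differed widely in RNA level: the highest alpha gene was 14.5 times the lowest in WT, and the highest beta gene 7.90 times the lowest. Which transcripts a deposited gene length covers is not stated, and a gene given a longer length reads lower on this scale. The lowest alpha gene, Psma5, also shares 49.96% of its 50-base words with other genes, so its level is uncertain. Neighbours in this order mostly overlapped, since only 5 of 44 adjacent pairs in WT had libraries that did not. The order was nearly the same in both groups, with Spearman's rho of 0.986 across the 45 genes, which share their libraries and gene lengths.

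**Figure D4:**
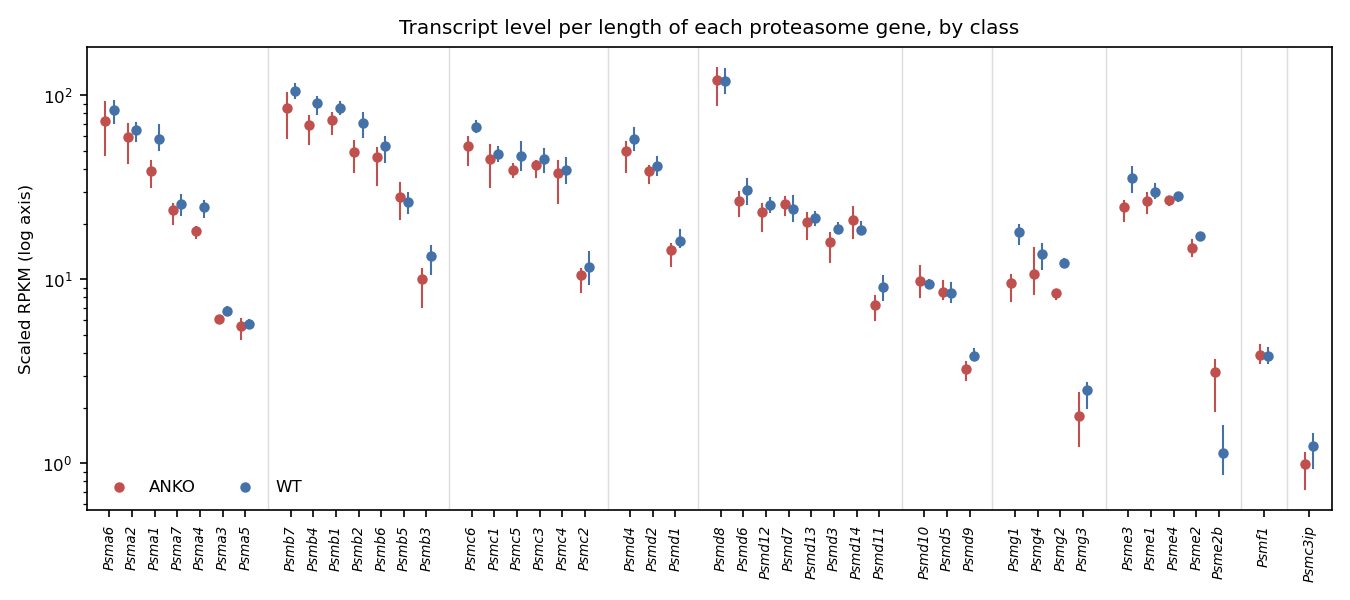
Scaled RPKM on a log axis (y axis) of the 45 tested proteasome genes (x axis, by class and in descending WT order), with ANKO in red left of WT in blue, points for the mean of 4 libraries and lines from the lowest to the highest library. Psmd8 is the highest at 121 RPKM in ANKO and 120.2 RPKM in WT.

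The interferon-inducible subunits, which replace the 3 catalytic subunits in the immunoproteasome, stood apart from their constitutive counterparts. Psmb8, Psmb9 and Psmb10 had log2 fold changes of 1.70, 1.74 and 0.73 and were each called higher (edgeR adjusted p = 5.63e-07, 1.49e-05 and 0.000325). Within a library, the ratio of RPKM of Psmb8 to Psmb5 was 0.603, 0.5999, 0.756 and 0.767 in ANKO, against 0.259, 0.247, 0.194 and 0.189 in WT. For Psmb9 to Psmb6 it was 0.192, 0.169, 0.169 and 0.254 in ANKO, against 0.0776, 0.0588, 0.0365 and 0.0354 in WT. For Psmb10 to Psmb7 it was 0.285, 0.290, 0.381 and 0.427 in ANKO, against 0.178, 0.200, 0.140 and 0.136 in WT. All 4 ANKO ratios exceeded all 4 WT ratios in each of the 3 pairs, by 3.08, 3.92 and 2.11 times in the geometric mean. Each gave p = 0.0286 in the exact two-sided permutation test, also after Benjamini-Hochberg adjustment over the 3, which is the smallest p that 4 against 4 allows. A ratio also moves with its constitutive term. Psmb7 had a log2 fold change of -0.31 and was not called, and Psmb5 shares 54.1% of its 50-base words with other genes. Macrophage and interferon-stimulated markers were higher in the same ANKO libraries, and their part in the ratios was not tested.

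**Figure D5:**
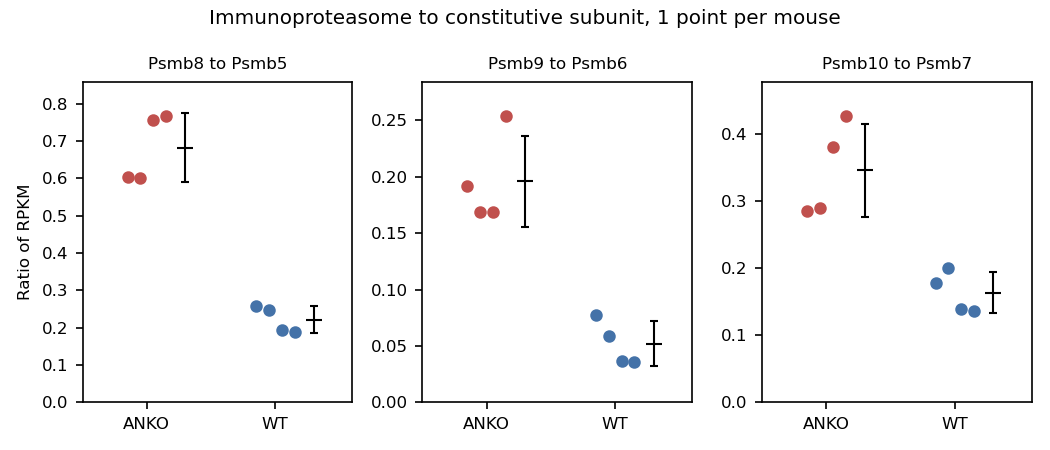
Ratio of deposited RPKM of each immunoproteasome subunit to its constitutive counterpart (y axis, starting at 0) in the 4 ANKO and 4 WT libraries (x axis), 1 point per mouse with mean ± SD. In each panel all ANKO points lie above all WT points.

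Promoters of the proteasome genes were searched for 3 motifs on both strands, and those of the genes whose values bear on them are shown here. The windows are RefSeq promoters on GRCm38.p6, from 250 bases before to 50 after the start, and 39 of the 47 genes had one. The motifs were TGACNNNGC, the antioxidant response element core bound by NFE2L1 and NFE2L2 with small Maf proteins, CCAAT, bound by NF-Y, and the core of the interferon-stimulated response element, a pair of GAAA runs with any 2 bases between them. Windows are written 5′ to 3′ along the gene, with the motif match in capitals: Psmg1 (chr16:95990911-95991210, minus strand), the gene with the lowest fold change, holds none of the 3. Psmb5 (chr14:54617946-54618245, minus strand) and Psmb6 (chr11:70525107-70525406, plus strand) hold the antioxidant response core as written. Psmc6 (chr14:45329574-45329873, plus strand) holds the antioxidant response core on its reverse strand. Psme1 (chr14:55578244-55578543, plus strand) holds the interferon core, also on its reverse strand.
Psmg1: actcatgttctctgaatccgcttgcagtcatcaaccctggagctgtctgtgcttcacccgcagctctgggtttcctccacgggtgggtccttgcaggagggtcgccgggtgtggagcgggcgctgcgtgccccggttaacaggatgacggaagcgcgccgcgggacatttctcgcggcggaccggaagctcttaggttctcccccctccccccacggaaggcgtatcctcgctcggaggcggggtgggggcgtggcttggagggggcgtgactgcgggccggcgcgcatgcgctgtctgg
Psmb5: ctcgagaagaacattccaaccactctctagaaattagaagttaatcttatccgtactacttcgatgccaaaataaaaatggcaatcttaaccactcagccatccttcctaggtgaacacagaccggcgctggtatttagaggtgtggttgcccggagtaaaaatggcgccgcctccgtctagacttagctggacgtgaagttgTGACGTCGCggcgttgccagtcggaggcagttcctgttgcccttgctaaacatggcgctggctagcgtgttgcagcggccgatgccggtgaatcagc
Psmb6: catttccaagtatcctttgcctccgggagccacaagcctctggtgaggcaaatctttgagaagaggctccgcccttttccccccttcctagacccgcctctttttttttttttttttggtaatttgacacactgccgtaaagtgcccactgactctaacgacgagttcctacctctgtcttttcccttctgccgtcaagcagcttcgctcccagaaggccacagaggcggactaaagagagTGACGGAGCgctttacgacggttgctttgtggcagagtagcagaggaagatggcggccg
Psmc6: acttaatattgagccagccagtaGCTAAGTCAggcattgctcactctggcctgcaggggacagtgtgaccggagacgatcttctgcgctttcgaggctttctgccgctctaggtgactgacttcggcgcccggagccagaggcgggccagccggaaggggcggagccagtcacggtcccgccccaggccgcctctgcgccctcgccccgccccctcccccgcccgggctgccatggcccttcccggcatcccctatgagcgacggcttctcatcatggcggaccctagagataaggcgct
Psme1: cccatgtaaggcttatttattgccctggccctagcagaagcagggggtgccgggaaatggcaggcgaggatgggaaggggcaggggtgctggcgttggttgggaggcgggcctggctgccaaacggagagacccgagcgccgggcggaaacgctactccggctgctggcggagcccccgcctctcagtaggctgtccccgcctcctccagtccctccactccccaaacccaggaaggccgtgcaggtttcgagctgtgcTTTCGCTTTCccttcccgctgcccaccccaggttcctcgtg

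The antioxidant response core was found in 6 of the 39 promoters (15.4%), those of Psmb5, Psmb6, Psmc6, Psmd12, Psmd9 and Psme4, and in 12.4% of all 32851 windows of this length. One of these 6 genes, Psmc6, was called, as were 7 of the 32 tested genes whose window lacked the motif. CCAAT was found in 14 (35.9%), and in 37.4% of all windows. The interferon core was found in 5 (12.8%), those of Psmb3, Psmd4, Psmd9, Psme1 and Psmg4, and in 3.44% of all windows, and none of these 5 genes was called, while 8 of the 33 tested genes without it were. Counted by gene rather than by window, the antioxidant core was found in 14.0%, CCAAT in 41.1% and the interferon core in 3.99% of 27025 genes. None of the 3 motifs contains another, and a match is only a run of letters in the window.

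Genes that work with the proteasome were followed in 4 lists. Their counts stand beside 58.2% of all genes called, 30.6% higher and 27.6% lower, and none of the lists had a larger share called in all. Among 12 proteasome-bound partners, 1 was called higher and 2 lower. Zfand5, which stimulates the 26S proteasome, averaged 115 ± 7.48 CPM in ANKO brown fat and 93.9 ± 8.002 CPM in WT (SD, n = 4 each), a log2 fold change of 0.30 (edgeR adjusted p = 0.0184). Adrm1, a ubiquitin receptor of the 19S base, had a log2 fold change of -0.44 and Ecpas, an adaptor and scaffold of the 26S proteasome, of -0.27. Pomp, the maturation factor of the beta ring, was not called, with a log2 fold change of 0.15 (edgeR adjusted p = 0.244).

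Of 12 shuttle factors and cofactors of the unfoldase VCP, 4 were called, all lower. Ubqln4, a shuttle that carries ubiquitinated proteins to the proteasome, had 66.4 ± 8.17 CPM in ANKO and 128 ± 12.0 CPM in WT (SD, n = 4 each), a log2 fold change of -0.95 (edgeR adjusted p = 6.46e-05). The VCP cofactor Faf1 had a log2 fold change of -0.69 and the deglycosylase Ngly1 of -0.64. Vcp itself was not called, with 51.3 ± 2.29 CPM in ANKO tissue and 56.2 ± 5.49 CPM in WT (SD, n = 4 each).

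Among 9 transcription factors of proteasome genes and proteins that regulate them, 2 were called higher and 1 lower. Nfe2l1 had 585 ± 79.8 CPM in ANKO and 814 ± 105 CPM in WT (SD, n = 4 each), a log2 fold change of -0.48 (edgeR adjusted p = 0.0210). Mafk, a small Maf partner, and Bach1, a repressor at the same element, had log2 fold changes of 0.36 and 0.26. Of the 7 ubiquitin and ubiquitin-activating enzyme genes, 1 was called higher and 2 lower. Uba6, an activating enzyme, was called lower, with a log2 fold change of -0.24. Uba7, which activates the interferon-induced modifier ISG15, was called higher, with 75.3 ± 1.42 CPM in ANKO tissue and 27.1 ± 6.81 CPM in WT (SD, n = 4 each), a log2 fold change of 1.48 (edgeR adjusted p = 2.73e-05). Uba1, which activates ubiquitin for most reactions, had -0.34 and was not called (edgeR adjusted p = 0.0550).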

How the data were processed

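Reads of rRNA-depleted total RNA from 4 ANKO and 4 WT mice had been processed by the authors with STAR 2.0.4b and featureCounts 1.45 (Subread) against GRCm38, per the submitters' processing notes. Sources used here do not state the strand setting, the annotation release or how multi-mapping reads were treated. Per the file headers, the authors deposited a read count, a CPM and an RPKM per gene. The deposited CPM and RPKM follow from the deposited counts and gene lengths to within 1e-09. Total counts ran from 5738067 to 49697156 per library, and in the shallowest a floor of 3 counts is 0.523 CPM, counting error only.

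Symbols came from GENCODE M21 by Ensembl ID, which matched 40340 of 41388 genes. The 355 rRNA rows, 0.801% to 1.13% of counts in ANKO and 2.83% to 3.53% in WT, were left out. Counts were tested with edgeR 4.0.16 in R 4.3.3 (filterByExpr by group, TMM, robust quasi-likelihood fit, no covariate), with Benjamini-Hochberg adjustment over 16705 genes and an adjusted p under 0.05 called. Standard errors and 95% intervals came from the F statistic. Printed CPM and RPKM use TMM-scaled library sizes, except the immunoproteasome ratios, which use deposited RPKM and an exact permutation test (scipy 1.17.1). The gene test was tested on simulated counts.

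The members and lists were chosen with earlier results of these data known. By rule, every library's value is given for the catalytic subunits, Psme1 to Psme4 and Psmf1, and in each class for the called gene with the smallest p and the genes with the lowest and highest fold change. Other genes given that way were added after their values were seen. Some called genes of the pathway lists are counted but not reported here by name. The 4 mice per group are taken as animals from the series' design. No libraries agreed within sampling noise (lowest chi-square per degree of freedom 7.16). Alternatives were other scalings and filters, DESeq2 1.42.0, limma-voom (limma 3.58.1), a replicate block, libraries left out, protein-coding genes alone, a muscle covariate, thinning and a stricter threshold. Figures used matplotlib 3.10.9.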

Additional observations from a re-analysis of the deposited data

Results flagged for a closer look

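Within groups of 4 libraries, a library was marked where its gap to the nearest other was, as a share of the group's range, above Dixon's 95% critical value. This happened in 7 of 90 groups of proteasome gene values, where chance gives about 1 in 20. In 6 of them ANKO4 was far below the other ANKO libraries. Its level was 42.8 CPM for Psmc2 (others 55.3 to 57.2), 94.4 CPM for Psmc3 (others 114 to 115) and 60.8 CPM for Psmb6 (others 93.6 to 96.7). It was 85.5 CPM for Psmd1 (others 109 to 112), 135 CPM for Psmd2 (others 164 to 166) and 214 CPM for Psme4 (others 231 to 234). ANKO4 is the library with the lowest total count, 5738067, and the highest TMM factor, 1.21, and the part of either in these values was not tested. The seventh was WT3 in Psmd14, at 58.0 CPM with the other WT libraries at 50.3 to 51.0 CPM. None of these 7 genes was called.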

How the results depend on the processing

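Of the 9 genes called lower, Psmg1 kept its call under every alternative run, and the calls of Psma1, Psma4, Psme3 and, higher, Psme2b were lost with the muscle covariate alone. Leaving out each library in turn gave 1 to 2 proteasome genes called higher and 7 to 12 lower, with a median log2 fold change of -0.24 to -0.10. By class these fits gave 4 to 5 core genes lower, 0 to 1 regulator genes higher and 0 to 3 lower, 1 to 2 activators lower, and 1 to 4 other pathway genes higher (1 without WT2, 2 without ANKO1 or ANKO3) and 6 to 17 lower (17 without WT1). The regulator had 0 lower without WT3 or WT4. With total counts the median of all genes moved to 0.17, the share of higher calls over all genes to 66.7% (52.5% with TMM), and the median of the proteasome genes to -0.0037; 2 of them were called higher, the regulator had 1 higher and 0 lower, and the other pathway genes 9 higher and 5 lower. With upper quartile scaling the regulator had 0 lower, and with a minimum of 1 CPM or limma-voom 1 lower. With no filter 1 other pathway gene was higher. With protein-coding nuclear genes alone 2 activators and 14 other pathway genes were lower. Thinning left 1 regulator gene and 1 assembly factor lower.

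With the muscle covariate 0 proteasome genes were higher and 1 lower, the median was 0.017, and 0 core genes, 0 regulator genes, 0 activators in either direction, 1 assembly factor and 2 other pathway genes were lower. Psmd11 then turned to a log2 fold change of 0.017. Muscle level and genotype are confounded in these libraries. Without WT3 and WT4, 5 proteasome genes, 2 core genes, 0 regulator genes and 3 other pathway genes were lower, and the log2 ratios of Psmb8, Psmb9 and Psmb10 to their counterparts were 1.42, 1.52 and 0.85, each with an adjusted exact permutation p of 0.133, the smallest 4 against 2 allows. With 1 library left out the 3 ratios ran from 1.55 to 1.70, 1.81 to 2.19 and 0.97 to 1.18, each at the smallest p allowed, 0.0571. At an adjusted p under 0.01, 5 proteasome genes, 2 core genes, 0 regulator genes and 3 other pathway genes were lower, and 1 other pathway gene higher. The causes of these changes were not tested. Among the 35 genes not called, 26 changed sign under some alternative, so the sign of a single uncalled gene carries little.

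Replicate numbers were not taken as pairs in the main test. After the group mean of each gene was subtracted, same-numbered ANKO and WT libraries correlated at 0.114, -0.01, 0.07 and -0.05. Differently numbered libraries were not compared in this way, so these values do not settle whether the mice were paired. With the replicate block 1 proteasome gene was higher and 8 lower, and 1 regulator gene was lower. The log2 ratios 1.62, 1.97 and 1.08 then had an adjusted exact sign-flip p of 0.125, the smallest that 4 pairs allow. At the depth of the shallowest library, reached by thinning, Psmg2 and Psmd11 lost their calls (edgeR adjusted p = 0.0777 and 0.05003).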

Other observations

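A pair of tissue-restricted core subunits and 1 gene outside the complex complete the 47. Psma8, the alpha subunit of testis proteasomes, had 15, 1, 2 and 3 counts in ANKO and 2, 0, 4 and 0 in WT. Psmb11, the beta subunit of thymus cortical epithelium, had 1, 0, 1 and 0 counts in ANKO and 2, 1, 0 and 3 in WT. Most of these values are at or under a floor of 3 counts, and neither gene was tested. Psmc3ip, which encodes a recombination factor of meiosis, had 1.95, 2.07, 1.89 and 1.31 CPM in ANKO, against 2.52, 1.71, 2.62 and 2.21 CPM in WT. Its libraries overlapped, and its log2 fold change of -0.30 was not called (edgeR adjusted p = 0.268).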
